A study of Mus musculus with 2 samples.

Results

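Hedgehog signalling was followed in sorted Flk1+Tie2+ cells through 9 genes of its core: the ligands Shh, Ihh and Dhh, the receptor Ptch1, the transducer Smo, the transcription factors Gli1, Gli2 and Gli3, and the ligand antagonist Hhip. They were chosen by gene symbol, as all probe sets that the platform annotation gives to these 9 genes, which came to 21 of 45037 probe sets and 9 of 18193 named genes. Expression was measured on Affymetrix 3' arrays, which give 1 signal intensity per probe set in arbitrary units. Both samples came from A2lox.Mesp1 mouse embryonic stem cells of 129/Ola background, which carry a Mesp1 gene that doxycycline (dox) switches on, and both were grown for 5 days as embryoid bodies, which are floating clusters of differentiating stem cells. One sample received no dox. The other received dox at 250 ng/mL from day 2 to day 4, according to its source name; its treatment label gives only the start on day 2. On day 5 cells bearing both Flk1 and Tie2, receptors that mark endothelium, were sorted from each culture. The transgene is present in both samples, and dox was not applied here to cells without it, so induction of Mesp1 and exposure to dox cannot be told apart. With 1 array per condition, every difference compares these 2 samples and carries no p-value.

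In Hedgehog signalling a secreted ligand binds Ptch1, which otherwise holds the membrane protein Smo inactive, and active Smo at the primary cilium lets Gli proteins act as activators in place of repressors. Gli2 is the main initial activator and Gli3 the main repressor, while Ptch1, Gli1 and Hhip are themselves induced by the pathway and serve as its readouts in most tissues. In the early embryo endoderm-derived Ihh acts on the formation of blood and vessels in the yolk sac, and Hedgehog ligands from endoderm and notochord act on endothelial tube formation.

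Of the 9 genes, Gli2 was the only one that differed 2-fold or more between the arrays by its brightest probe set, and it was 4.00-fold higher with dox. The readout genes Ptch1, Gli1 and Hhip lay within 2-fold, at log2 differences of 0.26, -0.20 and -0.27. Of these only Ptch1 was bright, and Gli1 lay below the median of both arrays. The remaining members lay between -0.27 and 0.41. Outside the core, the co-receptor genes Gas1 and Cdon were 6.28-fold and 2.24-fold higher with dox. Differences here and below are dox minus no dox on the log2(signal + 16) scale, where 16 is a pseudocount that understates changes of dim probe sets, and folds are computed from them.

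The promoter stretches of Gli2, the member with the largest difference, and Ptch1, the receptor and a readout of the pathway, are shown because Gli proteins act by binding DNA at their targets. Each line gives the 250 bases upstream of the RefSeq gene start in assembly GRCm38.p6, 5′ to 3′ on the gene's strand, which is the minus strand for both. The window of Gli2 is chr1:119053620-119053869 and that of Ptch1 is chr13:63565736-63565985. Capitals mark 9-base stretches with 2 mismatches to the Gli consensus GACCACCCA on either strand; the marked run in Gli2 holds 2 such stretches that overlap by a base.
Gli2: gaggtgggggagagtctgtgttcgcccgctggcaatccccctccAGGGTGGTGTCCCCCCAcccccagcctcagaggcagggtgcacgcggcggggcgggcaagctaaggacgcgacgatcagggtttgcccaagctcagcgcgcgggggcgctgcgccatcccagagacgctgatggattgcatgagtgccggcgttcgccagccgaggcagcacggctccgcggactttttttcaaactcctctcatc
Ptch1: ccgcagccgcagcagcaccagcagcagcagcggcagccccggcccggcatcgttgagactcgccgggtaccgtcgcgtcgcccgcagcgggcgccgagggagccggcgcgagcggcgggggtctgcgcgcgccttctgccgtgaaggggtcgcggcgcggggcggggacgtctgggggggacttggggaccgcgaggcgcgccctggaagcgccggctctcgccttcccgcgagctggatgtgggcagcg
The consensus GACCACCCA was searched on both strands in the windows of the 7 members that the promoter table holds (Ihh, Dhh, Ptch1, Smo, Gli2, Gli3 and Hhip). None held it exactly or with 1 mismatch, while 0.225% of all 32851 windows held it exactly and 5.79% with at most 1 mismatch. With at most 2 mismatches it was found in 5 of the 7 member windows, those of Ihh, Gli2, Smo, Hhip and Dhh, against 51.8% of all windows. The search with mismatches was added after the exact search had been seen. These matches describe letters in a short window and say nothing of binding. The windows of Ptch1 and Gli2 had GC contents of 78.4% and 67.2%, against a median of 52.4% over all windows.

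**Figure D1:**
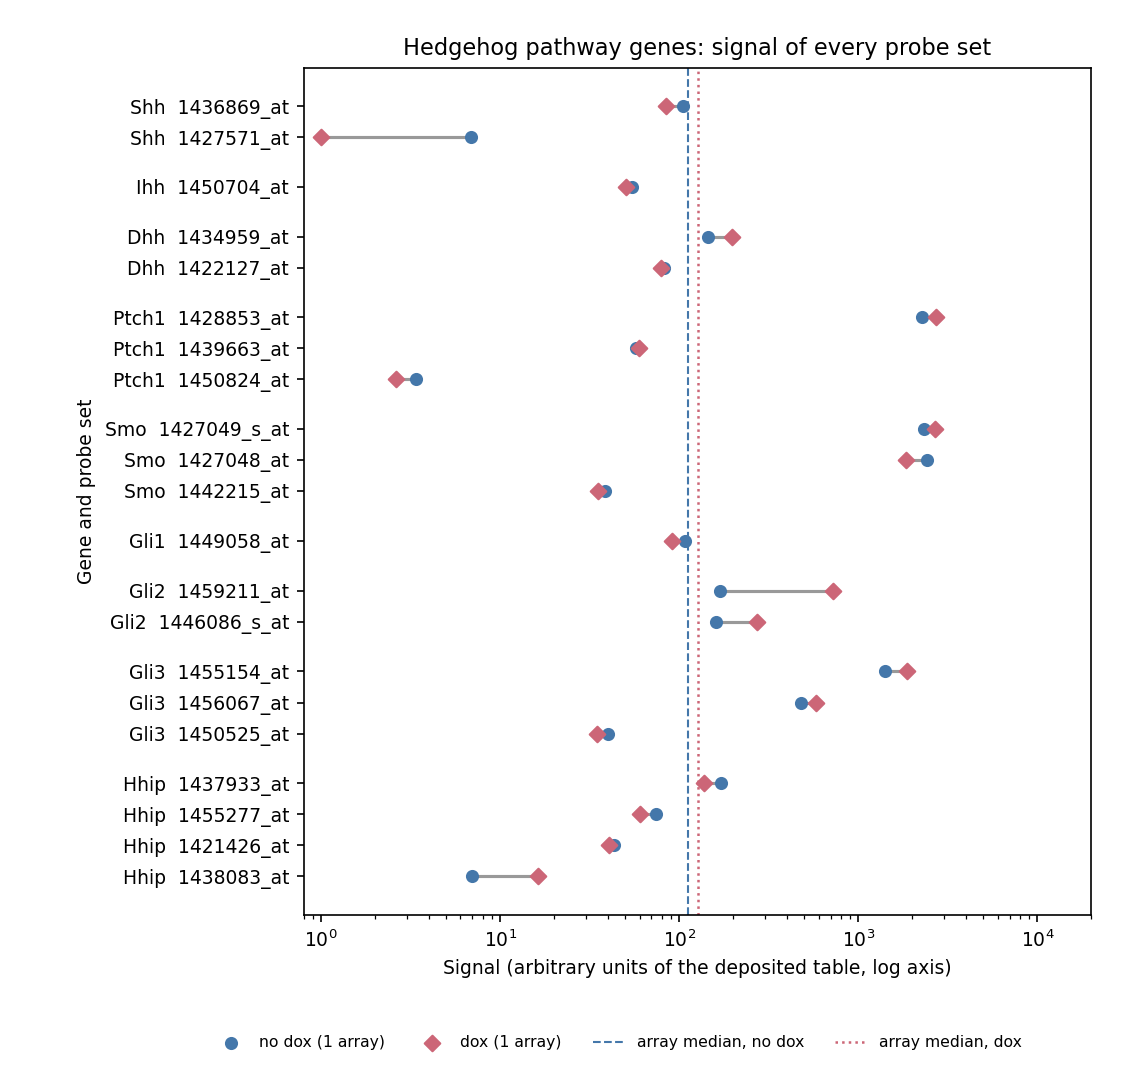
Signal of each of the 21 probe sets of the 9 Hedgehog genes without dox (circles) and with dox (diamonds), on a log axis in arbitrary units; each pair is joined by a grey line, and vertical lines mark the median signal of each array. The pair for the brighter Gli2 probe set is separated by 168 against 721, while the bright probe sets of Ptch1, Smo and Gli3 lie close together.

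A signal filter marked probe sets too dim to interpret: a gene passed when the brighter of its signals reached its array's median, 112 without dox and 127 with dox. The filter was passed by 6 of the 9 members, Dhh, Ptch1, Smo, Gli2, Gli3 and Hhip, each through both arrays. Shh, Ihh and Gli1 did not pass. Among the 6 that passed, 1 was at least 2-fold higher and 0 were at least 2-fold lower. Over all 11794 genes past the filter the corresponding shares were 5.69% higher and 2.06% lower. They were 4.48% and 3.41% after the arrays were scaled to a common median, and 4.99% and 2.72% after quantile normalization, with Gli2 past 2-fold in each. With the filter at the 75th percentile Gli2 itself did not pass, and the count of members 2-fold higher was 0. The median difference was 0.33 for the 6 members and 0.05 over all genes past the filter. Without the filter it was 0.19 for all 9 members and 0.04 over all named genes. Over the 21 member probe sets the median was -0.06. Of the 21 member probe sets 9 were higher and 12 lower with dox by any amount, 1 was 2-fold or more higher and none 2-fold or more lower, against 4.72% and 2.01% of all named probe sets.

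The ligand genes gave dim signals. Dhh, the ligand best known from testis, peripheral nerve sheaths and some endothelium, was the only ligand gene past the filter. Its brighter probe set read 144 without dox and 196 with dox, a log2 difference of 0.41. Its other probe set had 82.3 and 79.3 (-0.05), below the median of both arrays. The 2 probe sets of Dhh thus differed in direction, and neither reached 2-fold.

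Shh, the ligand of notochord, floor plate and limb, had signals of 105 without dox and 84.5 with dox on its brighter probe set, a log2 difference of -0.27. On its dimmer probe set it had 6.83 and 1, the latter being the lowest value the table holds. Ihh, the ligand of endoderm and cartilage, had 54.6 and 50.3 on its only probe set (-0.09). All 3 of these probe sets lay below the median of both arrays, so they give no usable order of the conditions, and the table has no detection calls to say whether these transcripts were present.

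Markers of tissues that make these ligands were examined beside them, and the markers named here were picked with their values in view. Of 12 measured endoderm markers 6 passed the filter and none of those differed 2-fold. Over all genes past the filter 5.69% were 2-fold or more higher and 2.06% lower. The summed signal of the 12 was 11120.3 without dox and 11617 with dox. Most of both sums came from Sox17, so they say little of the other markers. Foxa2, a factor of endoderm, node and floor plate, had signals of 42.0 and 32.45, and Hnf4a, a factor of visceral endoderm, had 89.9 and 66.8. Past the filter were Cubn (523 and 517), Apoa1 (367 and 321), Ttr (201 and 207), Cldn6 (172 and 153) and Amn (77.3 and 136), and Sox17 (9431 and 10010.4), which is also a gene of endothelium. Of 7 measured neural and floor plate markers 1 passed the filter, Pax6, with 382 and 234. The summed signal of the 7 was 564 and 374, and 3 of them were at the floor of 1 with dox. Most of both sums came from Pax6, so they say little of the other neural markers. Sox1 had 78.6 and 1 on its brighter probe set but 1 and 31.9 on the other, both below the median of both arrays. Of 5 measured node and notochord markers Chrd and Sox9 passed, with a summed signal over all 5 of 297 and 1144. Most of that rise came from Sox9, at 12.3 and 770.3, which is expressed in many mesenchymal cells too.

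Ptch1, which encodes the ligand receptor, was bright by 1 of its 3 probe sets. That probe set read 2257 without dox and 2712 with dox, a log2 difference of 0.26. Its other probe sets had 57.2 and 59.3 (0.04), and 3.39 and 2.61 (-0.06), below the median of both arrays. The Ptch1 difference was the size of the disagreement between bright probe sets of the same gene, whose pooled SD was 0.26 over 6861 probe sets of 2754 genes with a mean signal of 500 or more. That SD describes probe effects and noise within these arrays, not variation between cultures.

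Smo, the transducer that Ptch1 restrains, had bright probe sets that went in opposite directions. Its brightest by mean signal had 2341 without dox and 2680.0 with dox, a log2 difference of 0.19. The other bright one, designed from the same sequence record, had 2429 and 1845 (-0.39). The dimmest had 38.45 and 35.4 (-0.08). The bright pair lay 0.59 apart on the log2 scale, so no direction is given for Smo.

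Hhip, a membrane protein that binds and sequesters the ligands, was dim. Its brightest probe set had 171 without dox and 138 with dox, a log2 difference of -0.27. The others had 73.9 and 60.5 (-0.23), 43.3 and 40.4 (-0.07), and 7 and 16.3 (0.49), all below the median of both arrays. Of the 4 probe sets 3 were slightly lower with dox, and the dimmest was higher.

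Gli1, the amplifying activator whose transcription depends on the pathway, read 108 without dox and 91.6 with dox on its only probe set, a log2 difference of -0.20. Both values lay below their array's median. None of the probe sets of the readout genes Ptch1, Gli1 and Hhip reached 2-fold in either direction. Only the brightest probe sets of Ptch1 and Hhip reached the median of both arrays, so the others are too dim to interpret.

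Gli2, the main initial activator, had the largest difference of the 9 genes. Its brighter probe set read 168 without dox and 721 with dox, a log2 difference of 2.00, and ranked 237 from the top among 11794 genes past the filter. The other probe set had 161 and 274, a log2 difference of 0.71. Both were higher with dox and above the median of both arrays, but they lay 1.29 apart, and only the first passed 2-fold. The pooled SD between dimmer probe sets of the same gene, those with a mean signal under 500, was 0.48. Both Gli2 probe sets were designed from the same sequence record and are not independent of each other. Among 4670 named probe sets with a mean signal of 200 to 500, the band that holds both, 5.97% were 2-fold or more higher with dox. With the mean of both probe sets in place of the brighter one, the difference was 1.36.

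Gli3, the main repressor form of the family, was bright and differed little. Its brightest probe set had 1418 without dox and 1869 with dox, a log2 difference of 0.39, and the next had 478 and 580.3 (0.27). The dimmest had 39.8 and 34.8 (-0.14), below the median of both arrays. Its 2 bright probe sets were thus both somewhat higher with dox, by less than 2-fold.

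**Figure D2:**
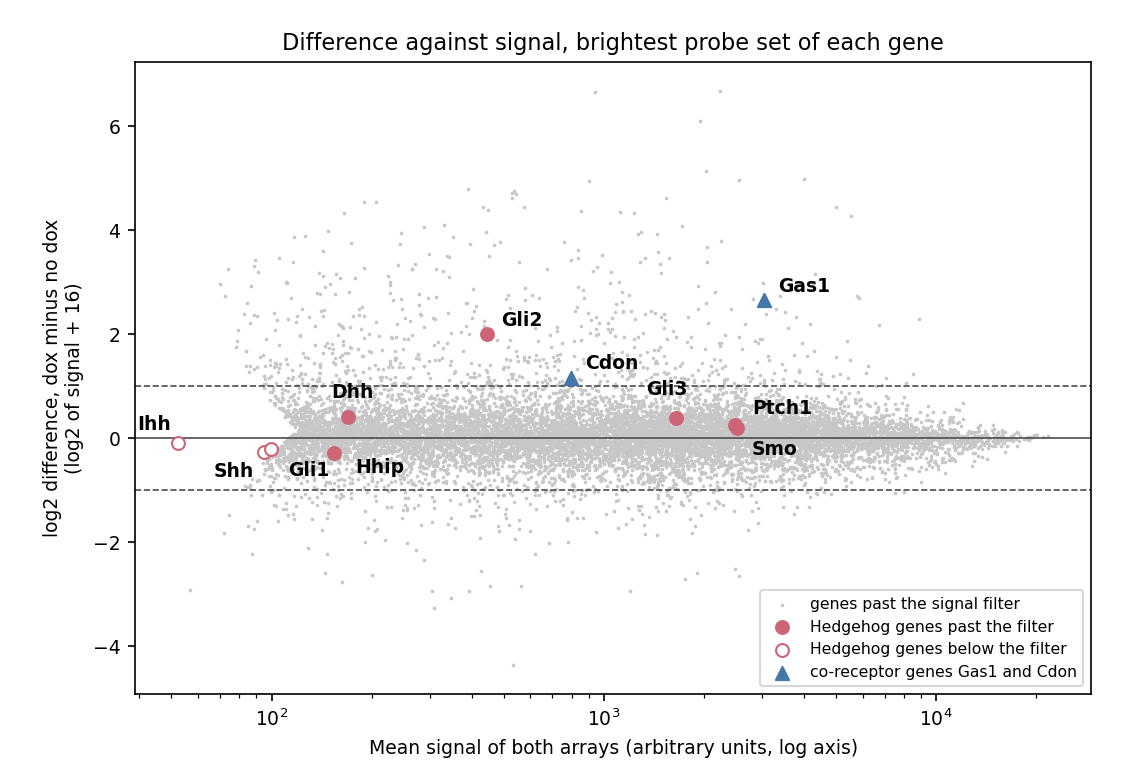
Log2 difference (dox minus no dox, log2 of signal + 16) against the mean signal of both arrays on a log axis, for the brightest probe set of each of 11794 genes past the filter (grey). Filled circles are Hedgehog genes past the filter, open circles those below it, and triangles the co-receptor genes; dashed lines mark 2-fold. Gli2 at 2.00 is the only Hedgehog gene outside the dashed lines, with Gas1 at 2.65 and Cdon at 1.16.

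At the cell surface Ptch1 works with co-receptors. Gas1, a lipid-anchored protein, and Cdon and Boc, related immunoglobulin-type proteins, each bind the ligand and promote its signal. Of 5 measured genes of the list of co-receptors and surface antagonists 4 passed the filter, 2 were at least 2-fold higher (Gas1 and Cdon) and 0 at least 2-fold lower, against 5.69% and 2.06% of all genes past the filter. The median difference of the 4 genes was 0.90, and 4 genes are too few to describe the list by a share. Of the 4 genes 1, Boc, met the filter on the dox array alone and so had to be higher. Lists were drawn from general knowledge of the pathway with earlier results of these data known.

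Gas1 read 819 without dox and 5227 with dox on its brightest probe set, a log2 difference of 2.65, and ranked 129 from the top. Another probe set had 365 and 1240.5 (1.72), and the dimmest had 5.43 and 11.2 (0.34), below the median of both arrays. Both bright probe sets of Gas1 were thus more than 2-fold higher with dox. Cdon had 486 and 1105 on its brighter probe set, a log2 difference of 1.16. Its other probe set had 12.7 and 44.7 (1.08), below the median of both arrays and so too dim to interpret. The call of Cdon rests on the scaling: after each array was scaled to a common median its difference was 0.98, just under 2-fold.

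The other members of that list are given after their values were seen. Boc had 107 without dox and 175 with dox on its brightest probe set (0.64), but 73.9 and 60.3 on the next (-0.24). The brightest probe set of Boc met the filter on the dox array alone. Vtn, a matrix protein that can bind ligand, had 8368 and 5367 (-0.64). Lrp2, an endocytic receptor, did not pass the filter, with 31.1 and 86.9, 51.1 and 57.2, and 4.47 and 47.6 on its 3 probe sets. Boc, Vtn and Lrp2 therefore added no gene past both the filter and 2-fold.

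**Figure D3:**
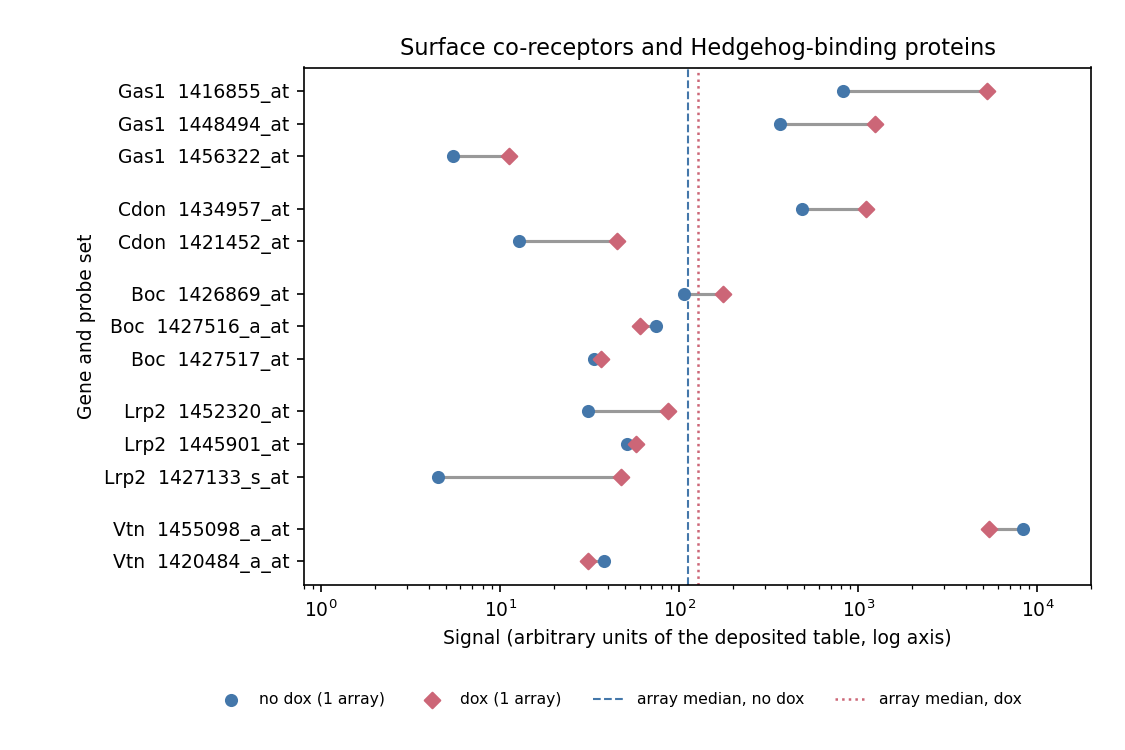
Signal of every probe set of Gas1, Cdon, Boc, Lrp2 and Vtn without dox (circles) and with dox (diamonds), on a log axis in arbitrary units, with the median of each array as a vertical line. Gas1 shows the widest gap among the bright probe sets, 819 against 5227, while Vtn is lower with dox.

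Wider lists covered the steps before and after the receptor, to be read against the same 5.69% higher and 2.06% lower. Among genes that modify, release or carry the ligands, 14 of 16 measured passed the filter, 1 was 2-fold or more higher and 1 lower, with a median of 0.21. The higher gene was Hs6st1, a heparan sulfate sulfotransferase (91.7 to 213, log2 difference 1.09), which was below its array's median without dox; it was no longer counted with a pseudocount of 64, median scaling, quantile normalization, the filter at the 75th percentile or that on both arrays. The lower gene was Dhcr7, the last enzyme of a route of cholesterol synthesis (2125 to 882, -1.25); cholesterol modifies the ligands and also acts on Smo. Named after their values were seen, Hhat, which attaches palmitate to the ligands, had 114 and 195 (0.70), and Disp1, which releases them, had 125 and 182 (0.50).

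Among regulators of the Gli proteins 27 of 29 measured genes passed the filter, 1 was at least 2-fold higher and 0 were at least 2-fold lower, with a median of 0.06, a share of higher genes near the background of 5.69%. The higher gene was Ulk3, a kinase that phosphorylates Gli proteins (135 to 318, 1.15), which has 1 probe set. The count of higher genes was 0 with a pseudocount of 64, median scaling or the filter at the 75th percentile. Sufu, the protein that holds Gli proteins in check in the cytoplasm, had 1530.1 and 1599 (0.06) and was named after its values were seen, as were the following genes. Kif7, a ciliary kinesin of the pathway, had 161 and 112 (-0.47). Gpr161, a ciliary receptor that restrains the pathway, had 88.1 and 180.3 (0.91), and Evc2, a partner of Smo at the cilium base, had 350.0 and 614 (0.78). Kif7 met the filter on the array without dox alone, which favoured a lower value with dox. Gpr161 met it on the dox array alone and so had to be higher.

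The machinery of the primary cilium, where the pathway operates, was close to even. Of 38 measured genes 36 passed the filter, 1 was 2-fold or more higher and none 2-fold or more lower, and the median was 0.04. Such a count is near the background of 5.69% higher and 2.06% lower and is no result about these genes. The higher gene was Wdr35, a component of intraflagellar transport (74.8 to 172, 1.05), which was below its array's median without dox. Its other probe set, dim on both arrays, gave 1.03. The count of higher genes was 0 with a pseudocount of 64, either scaling, the filter at the 75th percentile or that on both arrays. By any amount 22 of the 36 were higher and 14 lower, but the median turned to -0.14 after median scaling and -0.04 after quantile normalization.

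Of the wider lists, that of genes known as Hedgehog targets in other tissues held the most genes past 2-fold. Most of them are known to answer to other signals as well, and what drove them here was not tested. Of 46 measured genes 32 passed the filter, 11 were at least 2-fold higher and 0 were at least 2-fold lower. The background share of genes 2-fold or more higher was 5.69%, as above. For 6 of the 32 the dox array alone met the filter, and these had to be higher, so the count does not describe the whole list. With the filter on both arrays the count was 6. The median was 0.61 among genes past the filter and 0.04 over all 46 measured genes. Over all named genes it was also 0.04.

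The largest difference in the target list by brightest probe sets was that of Sox9. Sox9, a factor of cartilage and heart valves, had signals of 12.3 and 770.3 (log2 difference 4.80). Its other probe sets, below the median of both arrays, gave 1.25 and 2.60. Sfrp1, a secreted Wnt antagonist, had 90.7 and 2147.5 (4.34). Its dimmest probe sets gave 3.95, 2.09 and 2.06, while another had 243 and 301 (0.29). Angpt1, the Tie2 ligand made by mural cells, had 51.9 and 880.2 (3.72), and its other probe set was dim on both arrays, at 1 and 2.21. These 3 genes lay below the array median without dox, so their folds depend on the pseudocount.

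Hand2, a factor of heart and limb mesenchyme, had 958 without dox and 7568 with dox (2.96), but its 2 dimmer probe sets gave 0.35 and 0.79. Snai1, a repressor of epithelial genes, had 70.8 and 554 (2.72), and it too lay below the array median without dox. Nr2f1, an orphan nuclear receptor, had 329 and 1833 (2.42). Bmp4, a ligand of the BMP pathway, had 720.5 and 3398 (2.21), and Foxc2, a forkhead factor of mesoderm and vessels, had 762 and 2783 (1.85). The other 3 genes past 2-fold were Tbx2, Bmp5 and Angpt2, named after their values were seen, with differences between 1.18 and 1.79. Tbx2, at 51.7 without dox, also lay below that median. Probe sets below the median of both arrays gave -0.86 for Angpt2, and -0.20 and 1.09 for Bmp5.

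Further genes of that list were picked with their values in view. Foxf1, a mesenchymal forkhead factor among the closest followers of Hedgehog signals in gut and lung, had 249.7 and 511 (0.99) on its brighter probe set and 168 and 205 (0.27) on the other. Ccnd1, a G1 cyclin, was lower, with 3071 and 1773 (-0.79), and its other probe sets gave -1.68 and -1.25. Ccnd2, another G1 cyclin, had 1803 and 3384 (0.90). Mycn, a factor of the Myc family, had 3136 and 2404 (-0.38). The target list thus held genes that differed in both directions. The core readouts Ptch1, Gli1 and Hhip were not among the genes past 2-fold, but Gli1 did not pass the filter and Hhip was dim.

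**Figure D4:**
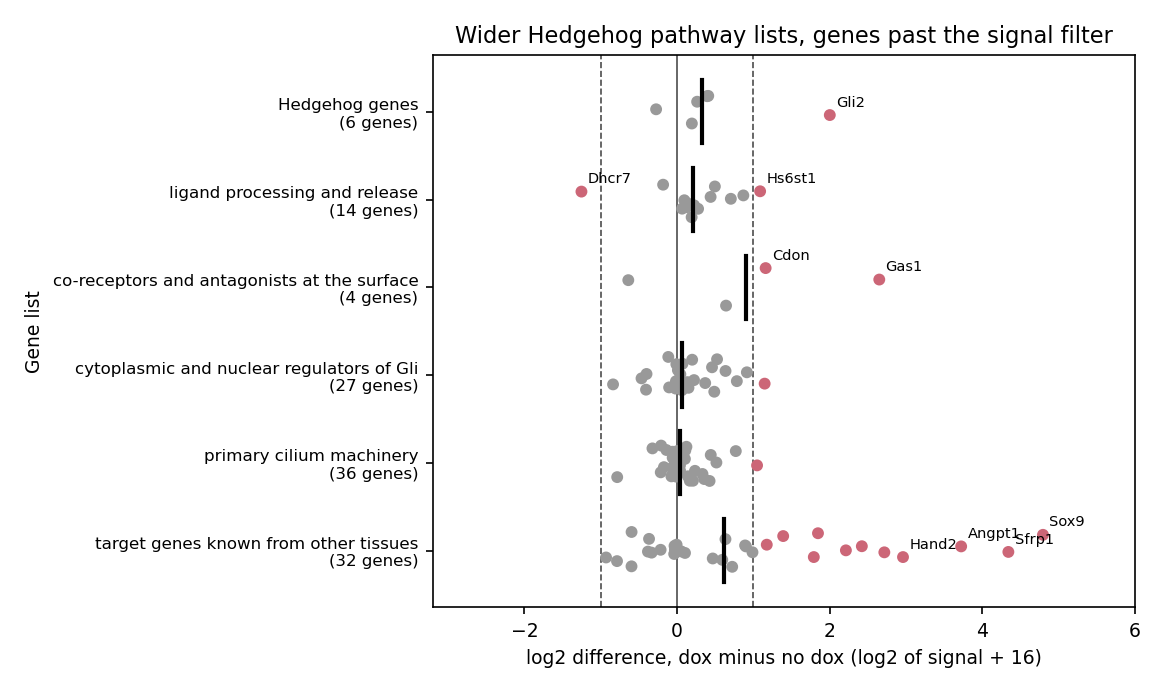
Log2 difference (dox minus no dox, log2 of signal + 16) of each gene past the filter in the Hedgehog core and in the 5 wider lists; each point is a gene, red points are 2-fold or more apart, black bars are list medians and dashed lines mark 2-fold. The median is 0.04 for cilium genes and 0.61 for target genes, whose higher members reach 4.80 at Sox9.

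Markers of other cells also differed between the samples. Their counts are to be read against 5.69% higher and 2.06% lower over all genes past the filter. All 12 mesenchyme and smooth muscle markers passed the filter and were higher with dox, 8 of them 2-fold or more; 3 of the 12 (Col1a1, Tagln and Lum) met the filter on the dox array alone and so had to be higher. Their summed signal was 6244 without dox and 42389 with dox, and none was at the floor of the table in either sample. Of 8 measured cardiomyocyte markers 6 passed the filter and 5 of those were 2-fold or more higher, although 3 of the 6 (Myh7, Myl4 and Myl7) met the filter on the dox array alone and had to be higher, with summed signals of 1695 and 6411. All 10 endothelial markers passed the filter. By brightest probe sets 9 lay within 2-fold, Cldn5 was lower (-1.40), and 8 of the 10 were lower by any amount. The summed signal of the 10 was 54853 and 50152. Another probe set of Erg, above the median of both arrays, had 552 and 146 (-1.81). Of 7 measured blood markers 6 passed the filter and 3 of those were 2-fold or more lower, and the summed signal of the 7 was 9786 and 5860.5. Among those lower genes Hba-x (140 and 62.0) and Gfi1b (314 and 67.3) met the filter on the array without dox alone. The filter thus favoured lower values for them. The sort selected cells by Flk1 and Tie2, and whether the sorted cells themselves or other cells carried these transcripts was not tested, nor was their part in the differences of Gli2, Gas1 and Cdon. In such bulk samples fewer cells of a type and less RNA per cell cannot be told apart.

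The genes of the sort and of the induction were read as well. Kdr and Tek, which encode Flk1 and Tie2, each had a log2 difference of 0.08, and Mesp1 was 4.49-fold higher with dox (2433 to 10977). Both samples were selected by Flk1 and Tie2, so similar values of Kdr and Tek were favoured in advance. Whether the Mesp1 signal came from the transgene or the cells' own gene was not tested. Across the table the lowest signal was 1 in both columns, held by 1165 probe sets in the untreated sample and 1102 in the treated one, and the highest were 22018 and 22539. The number of arrays limits the precision of all values.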

How the data were processed

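RNA of 2 sorted samples, 1 without and 1 with dox, was hybridised to Affymetrix 3' arrays from 100 ng of total RNA, per the labels' protocols. The authors deposited a linear intensity for each probe set on each array; the summarisation and scaling behind them are not given in the sources used here. The pseudocount of 16 was added and log2 taken. Of 45037 probe sets 34945 had 1 gene symbol in the platform annotation, 932 had several and 9160 had no gene listed; only the first kind was used. All 9 members matched the RefSeq gene table (GRCm38.p6) by Entrez number and symbol. Each gene's value is that of its brightest probe set (by mean signal), and genes were described by a fixed 2-fold threshold, without tests. Promoter sequences are RefSeq's, from GRCm38.p6. The 9 members and the 5 wider lists (150 genes, 134 measured) were chosen with earlier results of these data known. Genes named are all members with every probe set, and Kdr, Tek and Mesp1. Of each list, up to 8 genes past the filter and 2-fold with the largest differences are named. Other genes, among them Tbx2, Bmp5, Angpt2 and other cell type markers, were named after their values were seen. Pseudocounts of 1 and 64, median scaling, quantile normalization, other filters and other uses of probe sets were tried. The procedure was run on simulated data with less noise than the disagreement between probe sets seen here. That run therefore gives no rate of false 2-fold calls for these arrays. Protein sequences were not used here. Python 3.11.15, pandas 2.3.3, numpy 2.4.6 and matplotlib 3.10.9 were used.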

Additional observations from a re-analysis of the deposited data

How the results depend on the processing

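Gli2 stayed past 2-fold under all 6 alternatives of scaling, pseudocount and probe sets, with log2 differences from 1.36 to 2.09, and no other member reached 2-fold under any of them. Apart from the mean over probe sets, these alternatives all used the brighter Gli2 probe set alone. None used the other probe set alone, which at 0.71 did not reach 2-fold. They therefore say little about the disagreement between the Gli2 probe sets. Smo changed direction, to -0.09 with the mean over its probe sets and -0.39 without probe sets marked _x_ or _s_. With the filter at the 75th percentile, 725 with dox, Gli2 no longer passed and the count of members 2-fold or more higher was 0. Median scaling moved the median difference of all genes past the filter by -0.18, to -0.13.

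The single 2-fold higher genes of the ligand processing and cilium lists were lost (a count of 0) with a pseudocount of 64, median scaling, quantile normalization, the filter at the 75th percentile and the filter on both arrays. The count of higher Gli regulators was 2 with a pseudocount of 1, and 0 with a pseudocount of 64, median scaling or the 75th percentile. One of these regulators was 2-fold or more lower (a count of 1) with median scaling, with the mean over probe sets and without _x_ and _s_ probe sets. Of the co-receptor list 1 gene stayed 2-fold higher with median scaling. In the target list the count of lower genes was 2 with median scaling and 1 with quantile normalization or the mean over probe sets. Its count of higher genes was 6 with the filter on both arrays. Its median was 0.20 with the mean over probe sets, 0.041 without a filter and 0.10 with the filter on both arrays. The causes were not tested, apart from the filters, which change the genes counted. No paired analysis was possible because each condition has 1 sample.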
